A study of Mus musculus with 46 samples.

Results

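Goblet cell secreted products were followed in the cecum of mice on 4 diets, array by array. The set holds 8 genes (Muc2, Fcgbp, Zg16, Clca1, Tff3, Agr2, Spink4 and Reg4) out of 20887 genes named on the array, and each was represented by the probe ID whose RefSeq accession maps to its symbol. Each of the 8 genes had 1 such probe, so no choice between probes arose. Total RNA of whole cecum tissue was labelled with Cy3 and hybridised to Agilent arrays with 55681 different probe IDs, 1 sample to an array. All mice were male C57BL/6, the diets lasted 8 weeks, and the mice were 20 weeks old when the tissue was taken. HFD supplied 45% of energy as fat and LFD 10%. HFD + inulin was the HFD with 10% of its weight, taken from corn starch and cellulose, replaced by inulin, a chain of fructose units that gut bacteria ferment. HFD + inul PB replaced the same share with inulin esterified to propionate and inulin esterified to butyrate, 5% of each. HFD and HFD + inulin were measured on 6 cecum arrays each, and HFD + inul PB and LFD on 5 each. The study had left out 1 further HFD + inul PB cecum array, an outlier with smears on the slide. It also left out 1 LFD cecum sample for technical reasons. These are mixed-tissue samples with no sorting of cells, so fewer goblet cells and less RNA per goblet cell cannot be told apart in any result given here. The labels do not state that each array holds a separate mouse, and P values measure the spread between these samples.

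Goblet cells are the mucus-secreting cells of the intestinal epithelium. They store the gel-forming mucin in granules, release it at the surface, and so lay down the layer that keeps gut bacteria away from the cells beneath. Cell fate passes through the factor Atoh1 and then Spdef, and the large, cysteine-rich mucin chains need folding helpers in the endoplasmic reticulum before they are sugar-coated and packed. Muc2 is the gel-forming mucin itself. Fcgbp, Zg16 and Clca1 are secreted with it and belong to the mucus, Fcgbp as a large protein that joins the mucin network, Zg16 as a lectin that binds bacteria and Clca1 as a protease that acts on the gel. Tff3 is a trefoil peptide of epithelial repair, Agr2 a disulfide isomerase of the endoplasmic reticulum needed to make Muc2, Spink4 a small protein of the Kazal inhibitor family, and Reg4 a secreted lectin-like peptide.

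The regulatory sequence in front of these genes is shown because the 8 products were read beside the lineage factors that act on such sequence. RefSeq promoter windows of mouse assembly GRCm38.p6 were at hand for 4 of the 8 genes, and entries for Zg16, Clca1, Tff3 and Spink4 were not in the table used here. Each line gives the 250 bases before the transcription start, 5′ to 3′ on the plus strand, for Muc2 at chr7:141690090-141690339, Fcgbp at chr7:28070986-28071235, Agr2 at chr12:35992675-35992924 and Reg4 at chr3:98221906-98222155. Capitals mark matches on either strand to 7 motifs, which were CAGCTG (an E-box, the kind of site bound by Atoh1 and its relatives), CAGATG (a second form of E-box), TGTTTAC (forkhead core), TTTATG (CDX core), AGGATG (SPDEF core), TGACGTGG (the core of the unfolded protein response element) and CCACCC (KLF core).
Muc2: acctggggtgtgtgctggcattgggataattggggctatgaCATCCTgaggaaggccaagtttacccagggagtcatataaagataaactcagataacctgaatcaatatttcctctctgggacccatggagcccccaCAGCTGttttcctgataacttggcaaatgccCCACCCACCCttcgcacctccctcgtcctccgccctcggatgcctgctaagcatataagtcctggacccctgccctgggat
Fcgbp: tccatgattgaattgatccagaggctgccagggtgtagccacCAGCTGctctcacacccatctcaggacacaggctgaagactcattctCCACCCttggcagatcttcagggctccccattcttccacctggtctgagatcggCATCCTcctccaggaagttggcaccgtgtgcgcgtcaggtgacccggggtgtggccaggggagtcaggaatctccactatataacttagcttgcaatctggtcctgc
Agr2: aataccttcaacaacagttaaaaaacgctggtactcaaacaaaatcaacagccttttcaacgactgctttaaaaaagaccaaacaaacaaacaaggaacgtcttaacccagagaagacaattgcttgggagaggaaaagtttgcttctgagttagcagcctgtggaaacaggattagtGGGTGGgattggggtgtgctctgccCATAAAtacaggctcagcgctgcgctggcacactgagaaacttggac
Reg4: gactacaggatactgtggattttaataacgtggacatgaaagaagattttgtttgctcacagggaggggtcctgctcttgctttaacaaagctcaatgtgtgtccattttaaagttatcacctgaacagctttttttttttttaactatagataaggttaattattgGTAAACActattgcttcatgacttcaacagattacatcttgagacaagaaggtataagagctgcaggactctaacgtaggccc
Muc2 held CAGCTG 112 bases before the start, AGGATG 209 bases before it on the reverse strand, and 2 overlapping copies of CCACCC. Fcgbp held the same 3 motifs once each, with CAGCTG 208 and CCACCC 161 bases before the start and AGGATG on the reverse strand. Agr2 held a reverse-strand CCACCC and a reverse-strand TTTATG, and Reg4 held TGTTTAC on the reverse strand 83 bases before its start. Such matches are common. Of 32851 windows of the same length, 13.0% held CAGCTG, 14.1% AGGATG, 28.1% CCACCC, 10.8% TTTATG and 3.17% TGTTTAC. The motifs CAGATG (14.4% of windows) and TGACGTGG (0.563%) were not among the letters of these 4 windows. A match describes letters only, and binding was not measured.

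All 8 probes were well above background on all 22 cecum arrays and saturated on none, with background-subtracted intensities between 8926 and 301040. The share of all spots well above background lay between 48.4% and 55.9% over these arrays. In liver, which has no goblet cells, Muc2 and Clca1 were well above background on 0 of 24 arrays, Fcgbp and Reg4 on 1, Agr2 and Spink4 on 2 and Zg16 on 3, whereas Tff3 was on all 24. The whole set was thus detected on every array with the cecum label, and of the 8 only Tff3 was detected on every liver array. Levels below are normalized log2 signal, in which 1 unit is a doubling. A level of one probe cannot be set against that of another.

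Both fiber diets were compared with HFD to ask how the secreted products responded to fermentable fiber added to a high-fat diet. On HFD + inul PB, 7 of the 8 products were lower than on HFD at an adjusted P under 0.05 in limma, against 3.51% of all probe IDs called lower in that comparison (7.34% of those well above background on all cecum arrays). Clca1 was the exception. On HFD + inulin, 4 of the 8 were lower, namely Muc2, Fcgbp, Agr2 and Spink4, against 0.735% of all probe IDs (1.27% of those well above background on all arrays). None was higher on either diet. The median difference of the 8 was -0.89 on HFD + inul PB and -0.55 on HFD + inulin, while the median over all probe IDs was 0.00 and 0.01. By the other criterion, a fold over 1.5 with an unadjusted P under 0.01, 7 products were lower on HFD + inul PB (2.15% of all probe IDs) and 4 on HFD + inulin (1.3%). Both comparisons use the same HFD arrays, so they are not independent of each other.

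**Figure D1:**
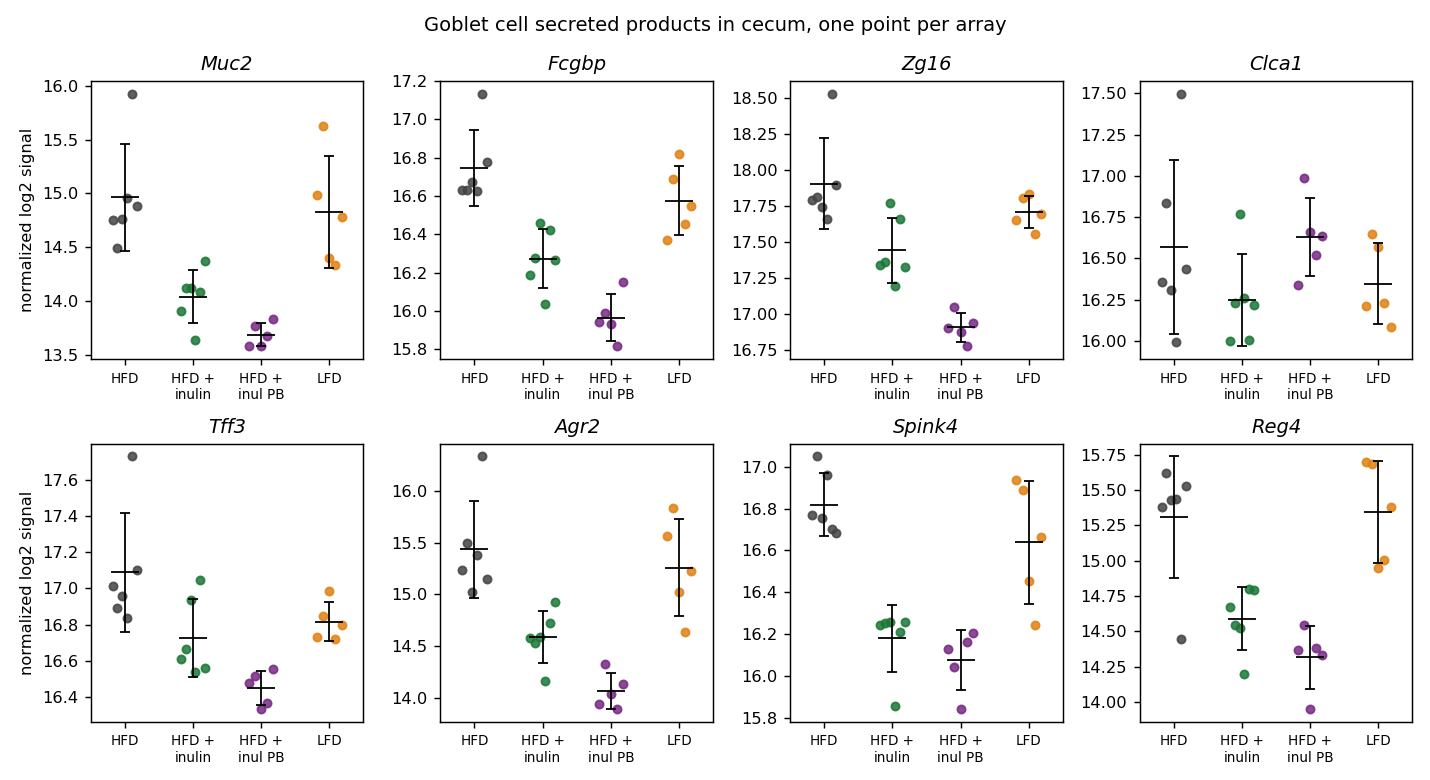
Normalized log2 signal (vertical axis, a separate range in each panel that does not start at 0) of the 8 products on each cecum array by diet; bars give the mean ± SD. In 7 panels the HFD + inul PB mean is the lowest, though single arrays of HFD + inulin reach below some HFD + inul PB arrays in all of these but Zg16, and in the Clca1 panel its mean (16.63) is not below that of HFD (16.57).

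Muc2, the gel-forming mucin, ran from 14.49 through a median of 14.82 to 15.93 on HFD. Its values on HFD + inulin ran from 13.63 through a median of 14.10 to 14.37, and on HFD + inul PB they were 13.58, 13.77, 13.58, 13.67 and 13.83. On LFD it read 14.98, 15.63, 14.40, 14.33 and 14.78. No array of either fiber diet reached the lowest HFD array, and 3 of the 5 LFD arrays lay within the HFD range with the others just under it. Muc2 fell by 1.28 on the log2 scale on HFD + inul PB (SE 0.23, adjusted P = 0.00246), to 41.3% of the HFD signal, and on HFD + inulin the difference was -0.93 (SE 0.22, adjusted P = 0.0364), or 52.7%. LFD differed from HFD by -0.14 (95% interval -0.61 to 0.34). The inulin call on Muc2 was made in 25 of 35 settings of the processing, those with an array left out included, and its adjusted P reached 0.132.

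Agr2, the isomerase that Muc2 production needs, had the largest difference of the 8 on HFD + inul PB. On HFD it ran from 15.02 through a median of 15.31 to 16.33. It ran from 14.17 through 14.58 to 14.93 on HFD + inulin and read 13.94, 14.33, 14.04, 13.89 and 14.14 on HFD + inul PB. It read 15.56, 15.84, 15.02, 14.64 and 15.22 on LFD. Again no array of a fiber diet reached the HFD arrays, and the LFD arrays overlapped them apart from 1 clearly lower array. Agr2 stood at 38.7% of HFD on HFD + inul PB (log2 difference -1.37, SE 0.22, adjusted P = 0.00104). On HFD + inulin it stood at 55.5% (-0.85, SE 0.21, adjusted P = 0.0421), a call made in 17 of 35 settings.

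Fcgbp and Zg16 are mucus proteins that travel with Muc2. Fcgbp ran from 16.63 through 16.65 to 17.13 on HFD, a tight group apart from 1 array, and from 16.04 through 16.27 to 16.46 on HFD + inulin. It read 15.94, 15.99, 15.93, 15.82 and 16.15 on HFD + inul PB and 16.37, 16.69, 16.82, 16.45 and 16.55 on LFD. Neither fiber diet overlapped HFD. Fcgbp fell by 0.78 when esterified inulin was fed (SE 0.11, adjusted P = 0.000291) and by 0.47 on HFD + inulin (SE 0.10, adjusted P = 0.0229, called in 27 of 35 settings). Zg16 ran from 17.66 through 17.80 to 18.53 on HFD and from 17.19 through 17.35 to 17.77 on HFD + inulin, where 2 of the 6 arrays lay within the HFD range. On HFD + inul PB it read 16.90, 17.05, 16.87, 16.77 and 16.94, below every array of the other 3 diets, and on LFD 17.65, 17.80, 17.83, 17.56 and 17.69. Zg16 stood at 50.1% of HFD on HFD + inul PB (log2 difference -0.996, SE 0.13, adjusted P = 0.000229), and the difference of -0.46 on HFD + inulin did not pass (SE 0.13, adjusted P = 0.0666).

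Spink4 had the steadiest inulin response. It ran from 16.68 through 16.76 to 17.05 on HFD, and on HFD + inulin 5 arrays sat between 16.21 and 16.26 with 1 at 15.86. On HFD + inul PB it read 16.13, 16.04, 15.84, 16.16 and 16.21, and on LFD 16.94, 16.89, 16.45, 16.25 and 16.66. Both fiber diets lay wholly below HFD, and the LFD arrays ran from the fiber range into the HFD range. Its difference was -0.64 on HFD + inulin (SE 0.11, adjusted P = 0.00827) and -0.74 on HFD + inul PB (SE 0.12, adjusted P = 0.00111). Both calls were made in all 35 settings.

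Tff3, the trefoil peptide, ran from 16.83 through 16.99 to 17.73 on HFD and from 16.54 through 16.64 to 17.05 on HFD + inulin. It read 16.48, 16.52, 16.33, 16.37 and 16.55 on HFD + inul PB and 16.73, 16.85, 16.99, 16.72 and 16.80 on LFD. All HFD + inul PB arrays were below all HFD arrays, and the inulin arrays overlapped them. Tff3 fell by 0.64 on HFD + inul PB (SE 0.13, adjusted P = 0.00633), whereas the -0.36 on HFD + inulin did not pass (SE 0.13, adjusted P = 0.161). Reg4, the lectin-like peptide, ran from 14.44 through 15.43 to 15.62 on HFD, where 5 of the 6 arrays were at 15.38 or above. It ran from 14.20 through 14.61 to 14.80 on HFD + inulin, read 14.37, 14.54, 13.95, 14.39 and 14.33 on HFD + inul PB, and read 15.70, 15.68, 14.95, 15.01 and 15.38 on LFD. Only the single low HFD array overlapped the fiber diets. Reg4 stood at 50.3% of HFD on HFD + inul PB (-0.99, SE 0.19, adjusted P = 0.00421), and the -0.72 on HFD + inulin missed the threshold (SE 0.18, adjusted P = 0.0516). With that array, HFD replicate 5, left out, the inulin difference was -0.89 and passed (adjusted P = 0.00469).

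Clca1, the mucus protease, was not called on any diet. It ran from 15.99 through 16.40 to 17.50 on HFD and from 15.998 through 16.23 to 16.77 on HFD + inulin. The HFD + inul PB arrays read 16.34, 16.99, 16.66, 16.52 and 16.64, and the LFD arrays 16.21, 16.65, 16.57, 16.23 and 16.08. All 4 diets overlapped. Its difference from HFD was 0.06 on HFD + inul PB (95% interval -0.38 to 0.49, adjusted P = 0.933) and -0.32 on HFD + inulin (-0.74 to 0.09, adjusted P = 0.494). The interval on HFD + inul PB allows a fall of up to 0.38, less than the measured fall of each of the other 7 products there, whereas on HFD + inulin it covers the differences of Fcgbp, Zg16, Tff3, Spink4 and Reg4.

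**Figure D2:**
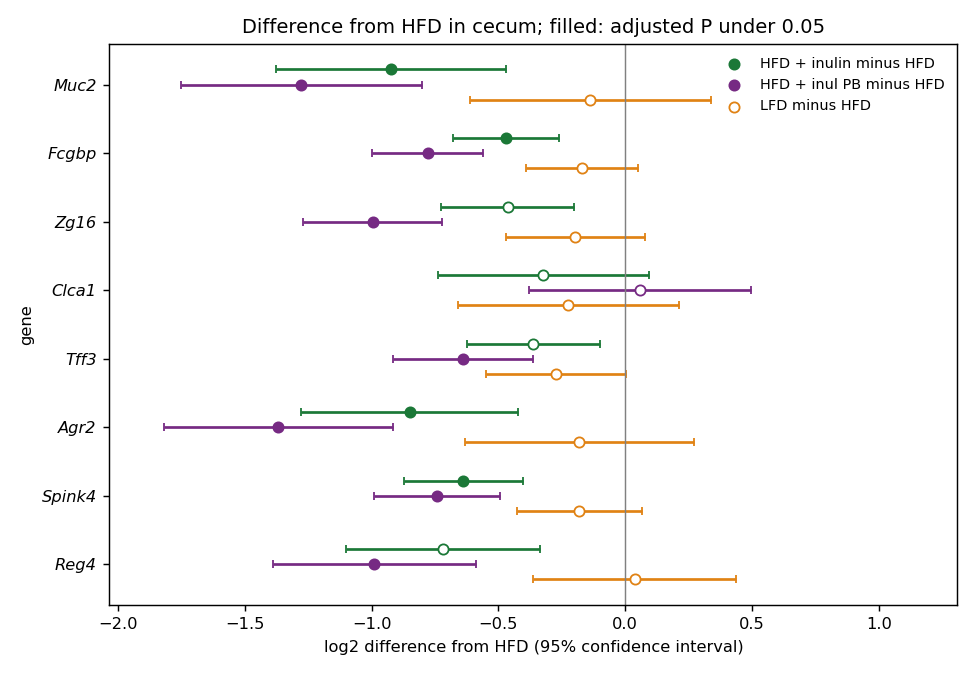
Log2 difference of each product from HFD (horizontal axis) with the 95% confidence interval from limma, by diet; filled points have an adjusted P under 0.05. The filled points are 7 on HFD + inul PB, 4 on HFD + inulin and 0 on LFD.

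On HFD + inul PB, every array was below every HFD array for 6 of the 8 products (all but Clca1 and Reg4), against 4.22% of all probe IDs. On HFD + inulin this held for 4 of 8 (Muc2, Fcgbp, Agr2 and Spink4), against 0.689%. For each of these the two-sided exact permutation test gave P = 0.00216, the smallest that 6 arrays against 6 or 6 against 5 can give. The cecum arrays lay on 3 slides of 8, 6 and 8 arrays, and each slide held arrays of all 4 diets. Within the slides, the 7 products called on HFD + inul PB were lower than HFD on all 3, with Muc2 differences of -0.95, -1.28 and -1.66. Each of the 4 called on HFD + inulin was also lower on all 3 slides, for Spink4 by -0.66, -0.80 and -0.46. HFD and HFD + inulin arrays occupied slide columns 1 and 3, and HFD + inul PB and LFD arrays columns 2 and 4. Slide column and diet therefore cannot be told apart in the comparisons of HFD + inul PB or LFD with HFD, nor in that of HFD + inul PB with HFD + inulin, but they can in that of HFD + inulin with HFD.

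LFD lay in the same slide columns as HFD + inul PB, and a comparison between these diets was added after the values had been seen. Against LFD, 6 of the 8 products were lower on HFD + inul PB, against 0.797% of all probe IDs called lower. The differences were -1.14 for Muc2 (adjusted P = 0.0232), -1.19 for Agr2 (0.0148), -1.03 for Reg4 (0.0173), -0.80 for Zg16 (0.00766), -0.61 for Fcgbp (0.0109) and -0.56 for Spink4 (0.0287). Tff3 at -0.37 (adjusted P = 0.225) and Clca1 at 0.28 (adjusted P = 0.675) did not pass.

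LFD and HFD differ in fat content and, by the diets the study lists, also in corn starch, maltodextrin and sucrose, with no fermentable fiber added to either. In limma 0 of the 8 were called, and 0 had an unadjusted P under 0.05, against 0% of all probe IDs called and 5.24% under that unadjusted limit. Differences ran from -0.27 (Tff3, 95% interval -0.55 to 0.003) to 0.04 (Reg4, -0.36 to 0.44). The interval was -0.63 to 0.27 for Agr2, so a fall of that size on LFD could not be detected. The LFD arrays were not uniform. LFD replicate 2 had the highest Muc2 (15.63) and Agr2 (15.84) of that diet, and LFD replicate 4 the lowest Muc2 (14.33), Agr2 (14.64) and Spink4 (16.25).

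When both fiber diets were averaged and set against LFD, 6 products were lower (Muc2 -0.96, Agr2 -0.93, Reg4 -0.89, Zg16 -0.53, Spink4 -0.51 and Fcgbp -0.46, adjusted P from 0.0149 to 0.0303), against 0.643% of all probe IDs called lower (1.34% of those well above background on all arrays). Tff3 (-0.23, adjusted P = 0.473) and Clca1 (0.09, adjusted P = 0.905) were not called. HFD + inulin lay in other slide columns than LFD, so column and diet can be told apart only in part here. The count of 6 depends on single LFD arrays. Without LFD replicate 2, or without LFD replicate 5, 0 of 8 passed, and without LFD replicate 1 only Fcgbp did, while the number past a fold of 1.5 with an unadjusted P under 0.01 was 3 in each of these fits, as with all arrays (0.884% of all probe IDs). Calls over all probe IDs, both directions together, fell from 624 to 255, 171 and 167 without LFD replicates 2, 5 and 1. The Muc2 difference in these fits was -0.76, -0.97 and -0.92.

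HFD + inul PB was compared with HFD + inulin to look for an effect of the ester groups beyond inulin. These diets lay in different slide columns, so column and diet cannot be told apart here. None of the 8 was called in limma, against 0.00718% of all probe IDs called lower. An unadjusted P under 0.05 was found for 4 (Zg16, Fcgbp, Tff3 and Agr2) and for 6.36% of all probe IDs. Zg16 differed by -0.53 with no overlap of arrays, a separation seen in 0.324% of all probe IDs (95% interval -0.81 to -0.26, adjusted P = 0.343, exact permutation P = 0.00433). Agr2 was -0.52 (-0.97 to -0.07), Fcgbp -0.31 (-0.53 to -0.09), Muc2 -0.35 (-0.83 to 0.12), Reg4 -0.27 (-0.67 to 0.13), Tff3 -0.28 (-0.55 to 0.00), Spink4 -0.10 (-0.35 to 0.14) and Clca1 0.38 (-0.06 to 0.82). These intervals do not show that both diets act alike on these genes, and 7 of the 8 estimates lay below 0.

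**Figure D3:**
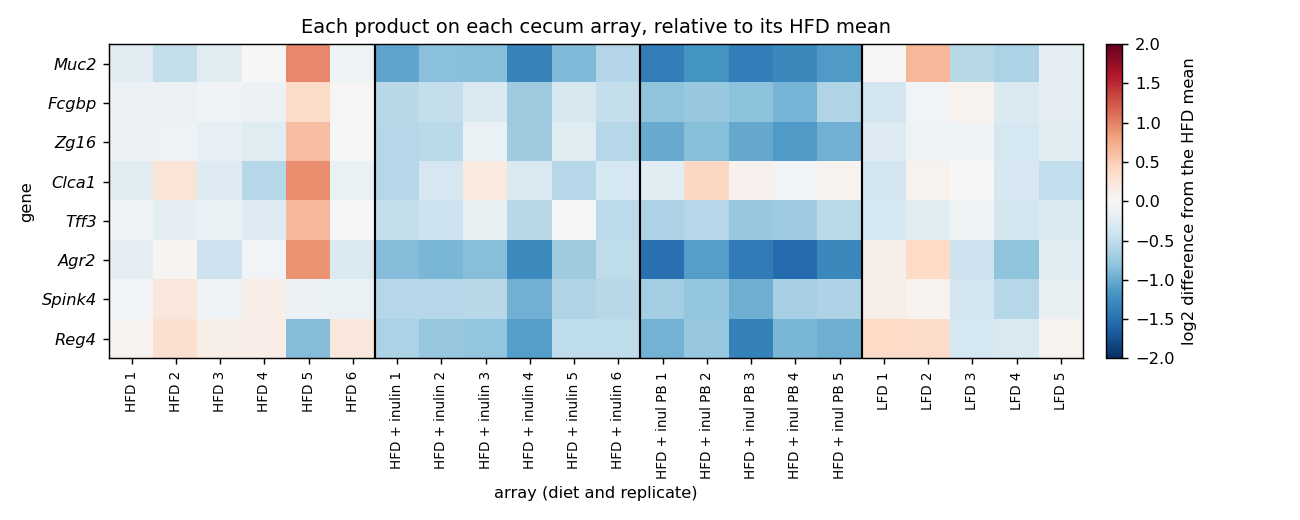
Each product (rows) on each of the 22 cecum arrays (columns, grouped by diet), as the log2 difference from its own HFD mean; blue is lower and red higher. HFD replicate 5 is red for 6 products and blue for Reg4 and, faintly, for Spink4, and every HFD + inul PB array is blue for 7 products.

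HFD replicate 5 stood apart. It had the highest HFD value of Muc2 (15.93), Fcgbp (17.13), Zg16 (18.53), Clca1 (17.50), Tff3 (17.73) and Agr2 (16.33), but the lowest of Reg4 (14.44). Leaving it out kept the HFD + inul PB count at 7 of 8 and the HFD + inulin count at 4 of 8. Over all probe IDs, 3635 and 907 were then called in either direction, against 3907 and 878 with all arrays. In the inulin count Reg4 took the place of Agr2, whose difference without that array was -0.67 (adjusted P = 0.0571). Muc2 was then at -1.08 on HFD + inul PB (adjusted P = 0.00249) and at -0.73 on HFD + inulin (adjusted P = 0.0465).

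After removal of the diet means, the products could be compared array by array for variation within diets. Of 28 pairs, 8 were correlated after Benjamini-Hochberg adjustment over the 28 (permutation test within diets, 100000 resamples, two-sided, n = 22), all positively, and 4 of these also by Spearman's rho. Zg16 and Tff3 had the closest relation (r = 0.95, rho = 0.91, adjusted P = 9.33e-05 for both), which stayed at 0.91 without the 2 arrays farthest out, at 0.91 without HFD replicate 5 and at 0.84, 0.95 and 0.98 within the slides. Fcgbp went with Zg16 (r = 0.88, rho = 0.85, adjusted P = 9.33e-05) and with Tff3 (r = 0.87, rho = 0.81, adjusted P = 9.33e-05), with 0.82 and 0.80 without the 2 farthest arrays. These rest on a permutation P of 1e-05, the smallest the resamples can give. Muc2 went with Agr2 (r = 0.88, rho = 0.79, adjusted P = 0.00091 and 0.00168), at 0.74 without the 2 farthest arrays and 0.82 without HFD replicate 5. Spink4 and Reg4 were related by r alone (r = 0.70, adjusted P = 0.00364; rho = 0.60, adjusted P = 0.0597), and across the slides at 0.72, 0.84 and 0.49. Relations of Clca1 with Zg16 (r = 0.77) and Fcgbp (r = 0.65), and of Zg16 with Agr2 (r = 0.65), passed by r but not by rho and dropped to 0.44, 0.40 and 0.48 without the 2 farthest arrays. Reg4 depended on HFD replicate 5, with r = -0.05 to Muc2 and 0.02 to Agr2 over all arrays and 0.55 and 0.64 without it. The closest relations between arrays of one diet were therefore among Fcgbp, Zg16 and Tff3 and between Muc2 and Agr2.

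Other goblet cell marker genes were read beside the products, in a list labelled as not secreted. That label was not checked gene by gene, so the list does not separate secreted from retained products. Of 10 measured, 9 were lower on HFD + inul PB and 4 on HFD + inulin, and their median difference was -1.10 and -0.85. Over all probe IDs, 3.51% were called lower and 3.51% higher on HFD + inul PB, and 0.735% lower and 0.842% higher on HFD + inulin, and the list counts that follow stand beside these shares. Sval1, whose product resembles a seminal vesicle antigen, had the largest difference on HFD + inul PB (-3.05, adjusted P = 0.000834; -1.63 and adjusted P = 0.0645 on HFD + inulin). Slc12a8, a membrane transporter, read 9.21, 9.46, 9.27, 9.31 and 9.17 on HFD + inul PB and from 10.51 to 11.56 on HFD, and fell on both diets (-1.52, adjusted P = 0.000229; -1.03, adjusted P = 0.0104). Tpsg1, a tryptase, also fell on both (-1.39, adjusted P = 0.00171; -1.04, adjusted P = 0.0244). The remaining inulin calls were Bcas1 (-0.83, adjusted P = 0.000948) and Capn9 (-0.86, adjusted P = 0.00172), and Hgfac was the 1 gene not called on either diet (-0.27 on HFD + inul PB). None of the 10 was called on LFD, where no probe ID at all was called.

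The transcription factors of the goblet lineage divided. Of 11, 4 fell and 1 rose on HFD + inul PB, and 2 fell on HFD + inulin, beside 3.51% of all probe IDs in each direction on HFD + inul PB and 0.735% lower on HFD + inulin. Atoh1, which commits progenitors to secretory fate, read 10.60, 11.03, 10.75, 10.45 and 10.56 on HFD + inul PB, all below the lowest HFD array at 11.44 (-0.90, adjusted P = 0.000419), and differed by -0.41 on HFD + inulin (adjusted P = 0.0911). Spdef, which drives goblet maturation, fell on both (-1.24, adjusted P = 0.00101; -0.84, adjusted P = 0.0266). Creb3l4, a membrane-bound factor of the endoplasmic reticulum, did too (-1.24, adjusted P = 7.42e-05; -0.71, adjusted P = 0.0116), and Gfi1, a repressor in secretory progenitors, fell on HFD + inul PB (-0.77, adjusted P = 0.00964). On HFD + inulin Gfi1 differed by -0.38 (adjusted P = 0.286), and the fiber diets were not called different from each other (-0.39, adjusted P = 0.748). Klf4, a factor of differentiated surface epithelium as well as goblet cells, rose on HFD + inul PB (0.73, adjusted P = 0.00757). Foxa1, Foxa2, Foxa3, Xbp1, Creb3l1 and Hes1 were not called, with differences between -0.24 and 0.45 on that diet.

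**Figure D4:**
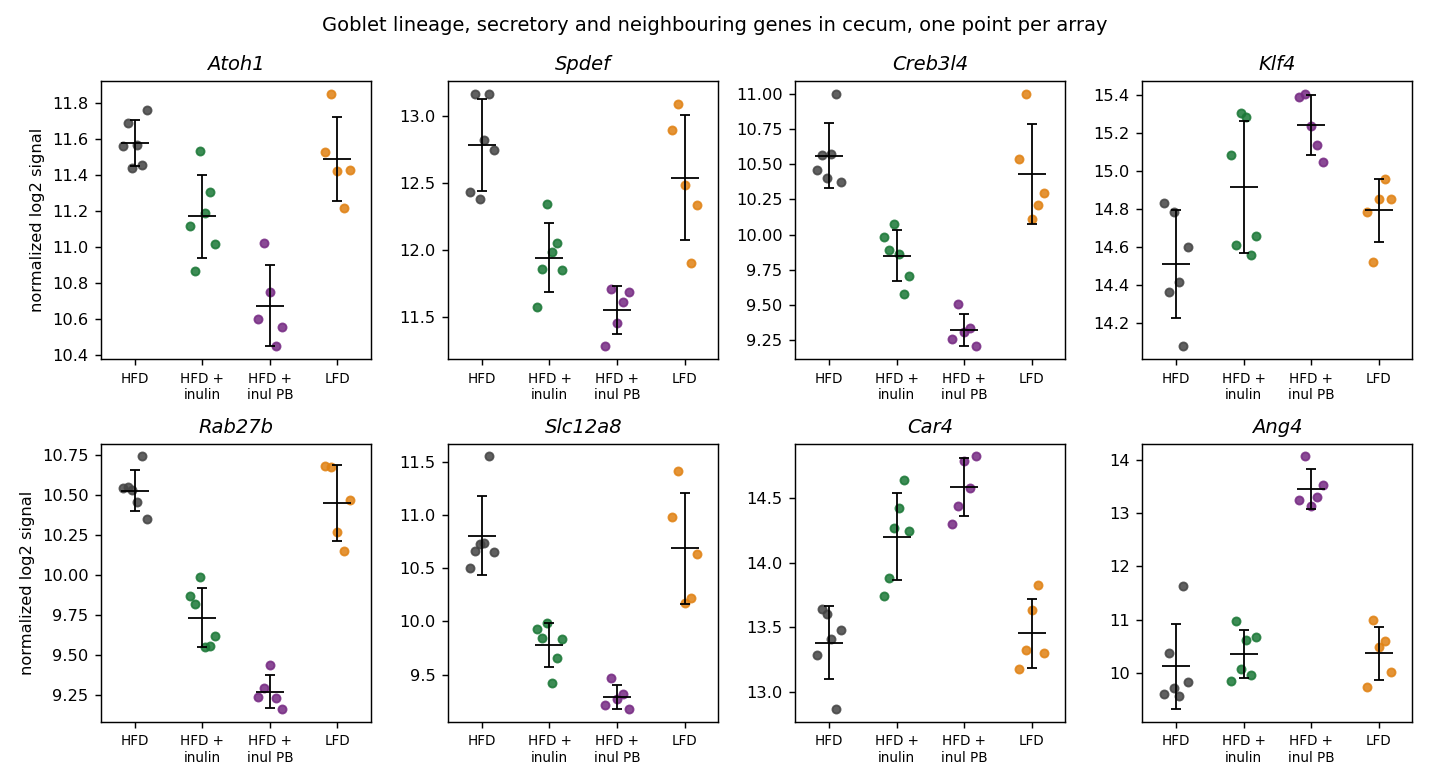
Normalized log2 signal (vertical axis, a separate range in each panel that does not start at 0) of 8 related genes on each cecum array by diet; bars give the mean ± SD. Atoh1, Spdef, Creb3l4, Rab27b and Slc12a8 are lowest on HFD + inul PB, Klf4 and Car4 are highest there, and Ang4 lies above 13 only there.

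The machinery that packs and releases mucus granules moved in part. Of 14 genes measured, 6 fell and 1 rose on HFD + inul PB (all probe IDs 3.51% each way) and 3 fell on HFD + inulin (all probe IDs 0.735%). Rab27b, a small GTPase of secretory granules, fell on both (-1.25, adjusted P = 6.61e-06; -0.79, adjusted P = 0.000948) and read 9.24, 9.30, 9.44, 9.23 and 9.16 on HFD + inul PB, with no HFD array below 10.35. Its relative Rab27a fell on HFD + inul PB (-1.05, adjusted P = 0.00122), and Sytl2, a Rab27 partner, on both diets (-1.04, adjusted P = 0.000391; -0.60, adjusted P = 0.0319). Slc9a8, a sodium-proton exchanger, rose slightly on HFD + inul PB (0.24, adjusted P = 0.047). Cftr, the anion channel that supplies bicarbonate for mucus to unfold, differed by 0.45 on HFD + inul PB and was not called (SE 0.58, adjusted P = 0.737). The other ion genes of the list had lower estimates there that just missed the limit in limma. They were Best2 (-0.98, adjusted P = 0.0621), Kcnn4 (-0.56, adjusted P = 0.0529) and Slc12a2 (-0.34, adjusted P = 0.0646).

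The steps between mucin synthesis and packing were read next. Of 24 enzymes of mucin O-glycosylation, 1 rose and 1 fell on each fiber diet, a share on HFD + inul PB near that of all probe IDs (3.51% each way), and so no result about the enzymes as a group. Chst4, a sulfotransferase, fell (-0.88, adjusted P = 0.000602 on HFD + inul PB; -0.67, adjusted P = 0.00912 on HFD + inulin), and Galnt12, which starts O-glycan chains, rose (0.35, adjusted P = 0.0249; 0.43, adjusted P = 0.0157). The median of the 24 was -0.07 and 0.07. Of 18 genes of folding and the unfolded protein response, 3 fell on HFD + inul PB and 0 on HFD + inulin in limma. These were Ern2, a stress sensor typical of mucus-secreting epithelium (-0.74, adjusted P = 0.00267), and the disulfide isomerases Pdia6 (-0.63, adjusted P = 0.0359) and Pdia3 (-0.31, adjusted P = 0.0467). Without HFD replicate 5 only Ern2 passed. Ern1, its relative found in all tissues, was not called (0.36, adjusted P = 0.0736).

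Of 9 other mucus and goblet products measured, 1 rose and 1 fell on HFD + inul PB and 0 were called on HFD + inulin. Ang4, an antimicrobial ribonuclease of secretory cells, read 13.24, 14.06, 13.13, 13.30 and 13.52 on HFD + inul PB. It lay between 9.56 and 11.64 on HFD, between 9.86 and 10.98 on HFD + inulin and between 9.74 and 10.99 on LFD. The HFD + inul PB arrays were thus above every array of the other diets, and the difference from HFD was 3.32 (SE 0.33, adjusted P = 2.62e-05). Against HFD + inulin, which lay in other slide columns, the difference was 3.09 (SE 0.33, adjusted P = 0.000153), whereas HFD + inulin differed from HFD by 0.24 (adjusted P = 0.763). Ang4 has close relatives in the mouse genome, and whether its probe also binds their transcripts was not tested. Klk1, a kallikrein protease, fell on HFD + inul PB (-0.62, adjusted P = 0.0124). Of 10 genes for interleukin signals that act on goblet cells, 0 were called on either fiber diet in limma. On LFD 0 passed an adjusted P of 0.05 as well, which was true of all probe IDs. The brightest, Il18, had a difference of 0.40 on HFD + inul PB (adjusted P = 0.557). The probes of Il13, Il25 and Il4 were well above background on at most 1 of 22 arrays.

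Markers of the other cells in the tissue were read the same way. Of 12 pan-epithelial genes, 1 rose on HFD + inul PB (Cdx2, 0.42, adjusted P = 0.00984) and 0 were called on HFD + inulin, which on HFD + inul PB is near the share of all probe IDs called higher (3.51%). The mean difference of the 12 from HFD was 0.03 ± 0.06 (SD, n = 5) on HFD + inul PB and 0.00 ± 0.08 (SD, n = 6) on HFD + inulin, beside -0.84 ± 0.11 and -0.59 ± 0.16 for the 8 products. The brightest pan-epithelial probe was that of Lgals4. Among 14 absorptive colonocyte genes, Car4, a carbonic anhydrase of the surface, and Slc26a3, the chloride-bicarbonate exchanger, rose on both fiber diets (Car4 1.204, adjusted P = 0.000448, and 0.82, adjusted P = 0.0144; Slc26a3 1.21, adjusted P = 0.00782, and 1.04, adjusted P = 0.0388), and Slc51b, a bile acid exporter subunit, fell on HFD + inul PB (-1.25, adjusted P = 0.0144). The mean of the 13 detected members was 0.12 ± 0.09 (SD, n = 5) on HFD + inul PB.

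Secretory and dividing neighbours were mixed. Of 12 enteroendocrine genes, Sct, the hormone secretin, fell on both diets (-0.67, adjusted P = 0.000659; -0.51, adjusted P = 0.0104), and Scg2, a granin, fell on HFD + inulin (-2.005, adjusted P = 0.0452). Of 8 tuft cell genes, Alox5, a lipoxygenase, rose on HFD + inul PB (0.82, adjusted P = 0.00119). Of 10 stem and proliferation genes, 3 fell on HFD + inul PB and 1 on HFD + inulin, beside 3.51% and 0.735% of all probe IDs. Lgr5, the stem cell receptor, fell on both (-0.62, adjusted P = 0.00204; -0.50, adjusted P = 0.0191), and Top2a (-0.68, adjusted P = 0.0167) and Pcna (-0.54, adjusted P = 0.0137), both of DNA replication, fell on HFD + inul PB. Of 4 deep crypt secretory genes, Kit, a receptor of the cells beside the stem cells, fell on both (-0.61, adjusted P = 0.0238; -0.61, adjusted P = 0.0476). The other members were not called on either fiber diet, and Kit differed by -0.41 on LFD (adjusted P = 0.839). Which cells of this mixed tissue gave the Kit signal was not tested.

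**Figure D5:**
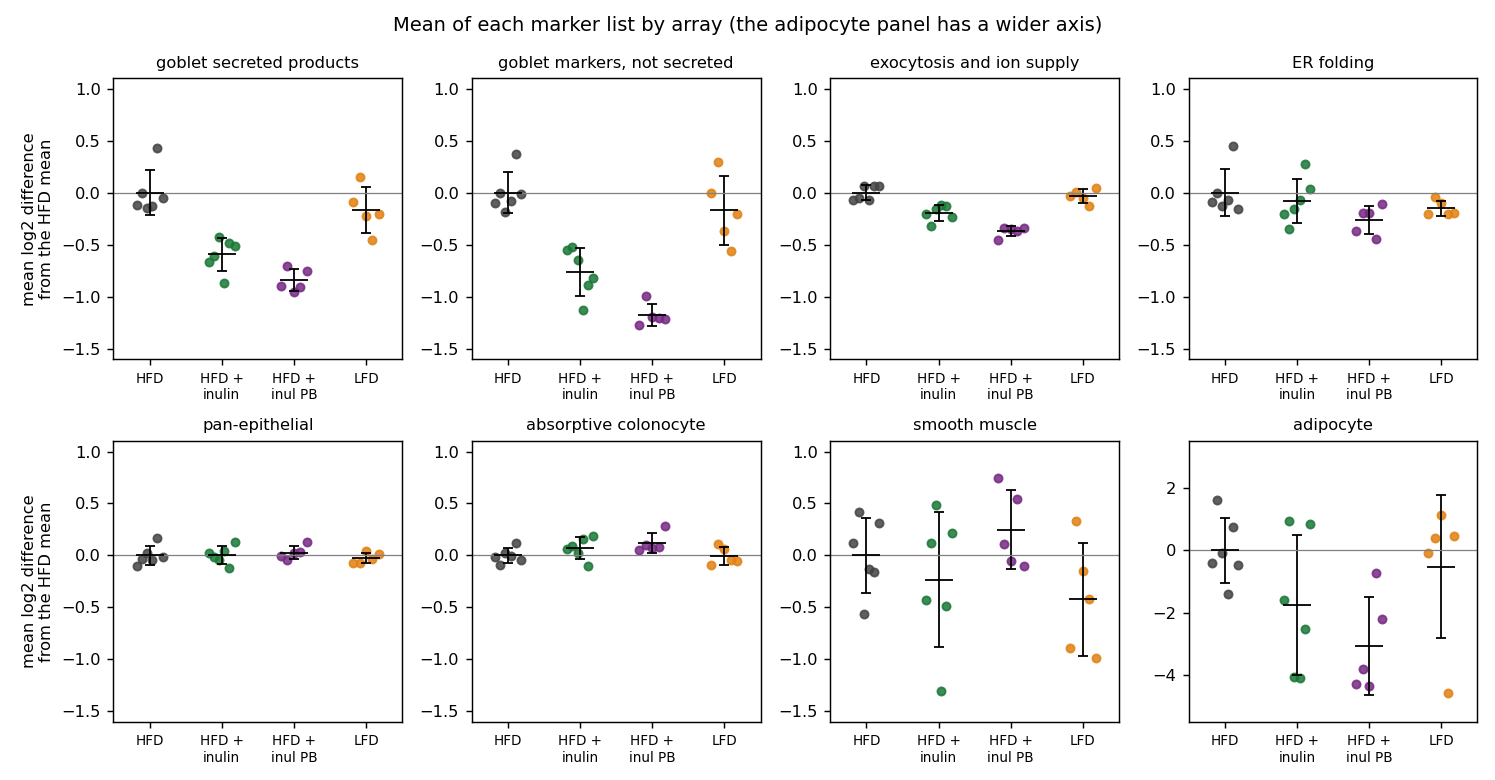
Mean log2 difference from the HFD mean (vertical axis) over the detected members of 8 gene lists on each cecum array by diet; bars give the mean ± SD, and the adipocyte panel has a wider axis. The products and the goblet markers labelled as not secreted fall with fiber (means -0.84 and -1.17 on HFD + inul PB). The pan-epithelial list stays near 0, and the adipocyte list spreads widely within each diet.

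Markers of cells outside the epithelium varied between arrays. Of 9 adipocyte genes, 2 fell and 1 rose on HFD + inul PB (Plin1, a lipid droplet protein, -5.00, adjusted P = 0.0486; Fabp4, a fatty acid carrier, -3.05, adjusted P = 0.04; Pck1, also made by epithelium, 0.89, adjusted P = 0.0219). The summed signal of the 8 detected members ran from 12325 through a median of 13171 to 32117 on HFD + inul PB and from 8606 through 16311 to 105602 on HFD + inulin. On LFD it ran from 11943 through 69229 to 136600 and on HFD from 19428 through 44776 to 189783, with Fabp4 the brightest probe. The sum is weighted to the brightest probes and includes Pck1, so it does not measure fat tissue alone. Adiponectin and leptin (Adipoq and Lep) were well above background on 16 and 8 of 22 arrays. On HFD + inul PB they differed from HFD by -6.21 (SE 2.00, adjusted P = 0.0671) and -2.80 (SE 0.88, adjusted P = 0.0593), large differences with a wide spread that were not called. Pck1 alone of the 9 had a positive estimate on that diet. The mean of the adipocyte list overlapped between all 4 diets, and the part of fat tissue in the results was not tested. Of 9 smooth muscle genes 0 were called in limma on any diet against HFD, with Tagln the brightest (0.11 on HFD + inul PB, adjusted P = 0.89). Among the B and plasma cell genes, Cd79b, a B cell receptor subunit, fell on HFD + inul PB (-1.44, adjusted P = 0.0112), and of 8 macrophage genes C1qa did (-0.91, adjusted P = 0.0159). On LFD, 0 genes of any of these lists were called in limma, and neither was any other probe ID. That absence therefore does not set these genes apart. Cd79b differed by -1.13 on LFD as well (SE 0.33, adjusted P = 0.839).

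Several counts of these lists rested on HFD replicate 5, the array that stood apart in the products. Without it, the other goblet cell markers lower on HFD + inul PB were 8 and on HFD + inulin 5, and the lineage factor counts were as before. Slc9a8 (adjusted P = 0.0934) and Galnt12 were then not called on HFD + inul PB, so that 7 granule genes fell and 0 rose there, and 2 fell on HFD + inulin. The adipocyte genes lower on HFD + inul PB became 0, with Fabp4 at -2.87 (adjusted P = 0.0742). On HFD + inulin, Scg2 (adjusted P = 0.078), Kit (0.0629) and Sytl2 (0.0564) were lost. Colonocyte genes called on HFD + inul PB were then 3 higher and 2 lower, and on HFD + inulin 2 higher and 2 lower. Among other mucus products 2 fell on HFD + inul PB and 1 on HFD + inulin, and 1 interleukin signal gene, Il22ra1, the interleukin-22 receptor subunit, rose on HFD + inul PB (0.69, adjusted P = 0.0421).

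The genes whose pattern over the 22 cecum arrays was most like the mean of the 8 products were sought among 12329 others well above background on every array. By Pearson r they were Slc12a8 (0.96), Spdef (0.94), Bcas1 (0.93), Creb3l4 (0.93), Tpsg1 (0.93), Rab27b (0.92), Gm1123 (0.92) and Slc41a2 (0.92). After removal of the diet means the values were 0.83, 0.74, 0.68, 0.66, 0.72, 0.58, 0.82 and 0.78 in the same order. Muc2 alone was most like Slc12a8 (0.97), Ostc, a subunit of the complex that attaches N-glycans (0.93), and Fut4, a fucosyltransferase (0.93). These values describe likeness over arrays that share diets and slides.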

How the data were processed

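The authors deposited the scanner output of each array (Agilent Feature Extraction 10.7.3.1), whose processed signal is a linear, background-subtracted intensity per spot. They also deposited log2 values of the same arrays, normalised by cyclic loess and averaged over spots with the same probe. The submitters' processing notes name limma, and the treatment of background in those values is not given in the sources used here. From the scanner files, control spots and outlier spots were left out, the log2 of the processed intensity of the 22 cecum arrays was normalised by cyclic loess (span 0.7), and spots of one probe were averaged. An intensity has no read depth, so the share of spots well above background is given in its place. LIMMA (limma 3.58.1, R 4.3.3, data.table, version 1.17.8) fitted all 4 diets together, and adjusted P are Benjamini-Hochberg values over 55681 probes with 0.05 as the limit. A second criterion was a fold over 1.5 with an unadjusted P under 0.01. The fit was tested on simulated data. Exact permutation tests were two-sided. Names came from RefSeq accessions matched to GRCm38.p6 (27509 of 55681 probes matched), with the probe brightest in cecum for each gene. Cecum slides held 8, 6 and 8 arrays, the first scanned apart from the others.

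The members, the gene lists and the motifs were chosen with earlier results of these data known, and none of them is independent evidence. Genes named from a list are the 3 strongest rises and 3 strongest falls at most among genes called for a fiber diet, or the brightest member where none was called. Capn9, Hgfac, Gfi1, Foxa1, Foxa2, Foxa3, Xbp1, Creb3l1, Hes1, Cftr, Best2, Kcnn4, Slc12a2, Ern1, Il4, Il13, Il25, Il22ra1, Adipoq, Lep and Retnlb fall outside that rule and were chosen after their values were seen. The 8 genes most like the mean of the products and the 3 most like Muc2 are named as well. Muc6, Nlrp6, Ceacam1, Sh2d6, Pla2g2a, Defa24, Itln2 and Cd68 had no matching probe name and are not analysed here. Alternatives were other background corrections and normalisations, the deposited values, outlier spots kept, a filter on dim probes, slide and replicate blocks, fits with only the diets compared, each array left out, and HFD + inul PB against LFD, which was chosen after seeing the data. Liver arrays entered no comparison between diets; they served to check detection and in the normalisation over both tissues. One result of the B and plasma cell list is not reported here.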

Additional observations from a re-analysis of the deposited data

Results flagged for a closer look

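On HFD replicate 5 the cecum values of Muc2 (15.93), Fcgbp (17.13), Zg16 (18.53), Tff3 (17.73) and Agr2 (16.33) lay far above the other 5 HFD arrays, whose nearest values were 14.96, 16.78, 17.89, 17.10 and 15.49. Reg4 on the same array (14.44) lay far below the next value of 15.38. Within HFD + inulin, Clca1 of replicate 3 (16.77) was far above the others (nearest 16.26) and Spink4 of replicate 4 (15.86) far below (nearest 16.21). A value counted as far from the others where its gap to the nearest array, divided by the range of the group, passed Dixon's 95% critical value. This held in 8 of 32 groups (8 products in 4 diets), 6 of them through HFD replicate 5. Chance gives about 1 in 20 for a single group, but the products share arrays and vary together, so the 32 groups are not independent and the number of such values cannot be read against that rate.

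In liver, 3 arrays had products that were both well above background and above every HFD liver array. Tff3, detected on all liver arrays, was not included, and values that were not well above background are left out. On LFD replicate 4, Zg16 reached an intensity of 6099, Spink4 192, Agr2 46.3 and Fcgbp 36.9. On HFD + inul PB replicate 4, Zg16 reached 335, Spink4 96.7 and Agr2 94.3, and on HFD + inulin replicate 6 Zg16 reached 202. The highest HFD liver values were 30.3 for Zg16, 22.5 for Spink4, 11.3 for Agr2 and 13.5 for Fcgbp. On these 3 arrays the 9 pancreatic acinar genes looked up after the values had been seen had their 3 highest liver values, for Cpa1, a carboxypeptidase, 24598, 1255 and 878 against a median of 13.3. The part of pancreatic tissue in the liver values was not tested.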

How the results depend on the processing

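By adjusted P, 7 products were lower on HFD + inul PB under every setting that kept HFD as the control, and 6 with LFD in place of HFD, while by fold and unadjusted P the number was 6 or 7 over the settings. The LFD and HFD + inul PB against HFD + inulin counts were 0 under every setting. The HFD + inulin count of 4 became 2 with no background correction and 1 with only the diets compared in the fit, and 1 to 6 with arrays left out. It was 1, Spink4 alone, without HFD replicate 6 or HFD + inulin replicate 4, and 2 without HFD replicate 4 or HFD + inulin replicate 1 or 3. Calls over all probe IDs, both directions together, moved as well. They numbered 878 in the fit reported above, 726 with no background correction and 46 with only the diets compared. With arrays left out they ran from 332 (without HFD + inulin replicate 4) to 1373, and were 407 without HFD replicate 6. With only the diets compared, the differences of Muc2 (-0.93) and Agr2 (-0.85) were unchanged. The HFD + inulin count of products was 6 over probes well above background (1803 calls in all), where Zg16 (adjusted P = 0.0311) and Reg4 (0.0229) were gained. It was 3 in the deposited values, where Muc2 (0.111) and Fcgbp (0.149) were lost and Zg16 (0.0408) gained, and 3 under normexp with the same losses (0.113 and 0.169) and gain (0.0482). Quantile normalisation gained Zg16 (0.0176), and Fcgbp was lost with scaling to the 75th percentile (0.106) and with loess over both tissues (0.0532). The fiber against LFD count of 6 became 3 with scaling to the 75th percentile, 3 with slide and row as a block, and 0 to 6 with arrays left out. Calls over all probe IDs numbered 624 in the fit reported above, and 301, 466 and 167 to 928 under these settings in the same order. The causes of these changes in the counts were not tested. Directions turned only where no product was called. Clca1 on HFD + inul PB ranged from -0.059 to 0.24 with arrays left out. Muc2 on LFD was 0.041 under normexp, 0.036 when background was not corrected, 0.035 in the deposited values, and -0.34 to 0.054 with arrays left out, and Reg4 on LFD ranged from -0.14 to 0.14. Of the single-product values, 1274 kept direction and call, 66 lost the call, 11 gained it and 9 turned. Same-numbered arrays of different diets had r from -0.33 to 0.57 between their deviations (31 pairs, median 0.14, 17 over 0.1), so not every pair passed 0.1 and the numbers were not taken to pair samples, although numbers 1 and 2 of every diet lay on slide 1, number 3 on slide 2 and number 5 on slide 3. With slide as a block, Reg4 on HFD + inulin also passed (adjusted P = 0.0333, count 5). With slide and row as a block, Muc2 (0.0607) and Agr2 (0.0621) on HFD + inulin were lost and Reg4 (0.0484) was gained, a count of 3. With the replicate number as a block, Zg16 on HFD + inulin was -0.46 and passed (adjusted P = 0.0493), so that count was 5, and no other call of the 8 products changed under that block. Using a second probe gave no value, since each product has 1 probe. With 5 or 6 arrays a diet, differences under about the interval widths given are not detectable.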

Other observations

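Retnlb, a goblet cell peptide with antibacterial action, was named after its values were seen. On HFD it read 15.46, 15.64, 15.41, 15.44, 13.24 and 15.20, with the low value on HFD replicate 5, the array that was also lowest in Reg4. On HFD + inulin it read 14.27, 14.28, 14.87, 14.01, 14.79 and 14.23, below the other 5 HFD arrays. The difference on HFD + inulin was -0.66 (adjusted P = 0.319) with all arrays and -1.03 (adjusted P = 0.00276, limma) without HFD replicate 5. On HFD + inul PB without that array it was -0.50 (adjusted P = 0.0772). Ang4 on HFD replicate 5 was 11.64, the highest of the HFD arrays, and its rise on HFD + inul PB was 3.62 without that array (adjusted P = 1.16e-06).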
